A study of Rattus norvegicus with 16 samples.

Results

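Subjective night was compared with subjective day in the fetal suprachiasmatic nuclei (SCN) of Group A, the litters whose mothers had an intact SCN clock. The comparison used 8 of the 16 RNA-Seq libraries of the series. The 4 libraries of the subjective day were those of CT0, CT3, CT6 and CT9, and the 4 of the subjective night were those of CT12, CT15, CT18 and CT21. Circadian time (CT) was counted so that CT12 was the onset of the mother's free-running activity, and a library was placed by the circadian time on its label. Group A mothers were Wistar rats that had a sham operation in early pregnancy, with the electrode inserted but no current passed, and food ad libitum. Group B mothers, used below only for comparison, had their own SCN destroyed and food restricted to a daily interval, and there CT12 was the start of activity tied to feeding. Both groups were kept in constant darkness from the operation on. Each library held SCN tissue punched from frozen sections of fetal heads and pooled within 1 litter, from 8 fetuses according to the label, although the protocol gives a varying number for Group B. The labels give embryonic day 17, whereas the methods of the study place the fetuses later in gestation.

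The SCN is the central circadian clock of mammals. In the adult, cells of the SCN keep time with a feedback loop in which transcription factors drive the genes of their own repressors, and synapses between the cells hold the tissue in phase. In the fetal rat these synapses are largely absent, and maternal signals such as hormones, temperature and nutrients vary over the day. Rats are active and feed mainly at night, so the contrast asks which transcripts of the fetal tissue differ between the active and the resting phase of a mother with a working clock. The 4 libraries of a phase are 4 litters at 4 times, and the spread among them holds both litter differences and change with time within the phase. Fetal age also moved with circadian time over the day of sampling, so time of day and age cannot be told apart.

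The total count ranged from 10746066 to 12781966 in the 8 libraries, and between 18162 and 18570 genes had a count. The 10 most abundant genes took 15.1% to 16.4% of the counts. None of 6 measures of depth and composition differed between night and day (exact permutation tests, two-sided, lowest p = 0.743, where 4 against 4 allows no p below 0.0286). No 2 libraries of the series were identical. The deposited table lists genes under Ensembl identifiers, for which no table at hand gave a symbol. Clock genes, neuropeptides and marker genes of SCN neurons or other cell types were therefore not analysed here, nor were promoter sequences, and the tissue label was not checked. In pooled tissue a lower count can mean fewer cells of a type or less RNA per cell, which cannot be told apart.

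Most transcripts differed little between night and day. Over the 13685 genes with at least 1.5 CPM (counts scaled to a common library size) in at least 3 of the 16 libraries, the log2 differences, night minus day, had quartiles of -0.08 and 0.10 and a median of 0.00393. The 5% and 95% percentiles were -0.30 and 0.34 on the log2 scale. With p-values of edgeR's quasi-likelihood test adjusted by Benjamini-Hochberg, 0 genes (0%) were below 0.05, and the lowest was 0.183. At an unadjusted p below 0.05 in the same test there were 977 genes (7.14% of those tested), of which 501 were higher at night (3.66%) and 476 lower (3.48%). DESeq2's Wald test on the same counts called 28 genes at an adjusted p below 0.05 (0.205%) and had 898 at an unadjusted p below 0.05 (6.56%). Without the CT9 library edgeR called 27 genes, and without the CT15 library 1 gene.

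**Figure D1:**
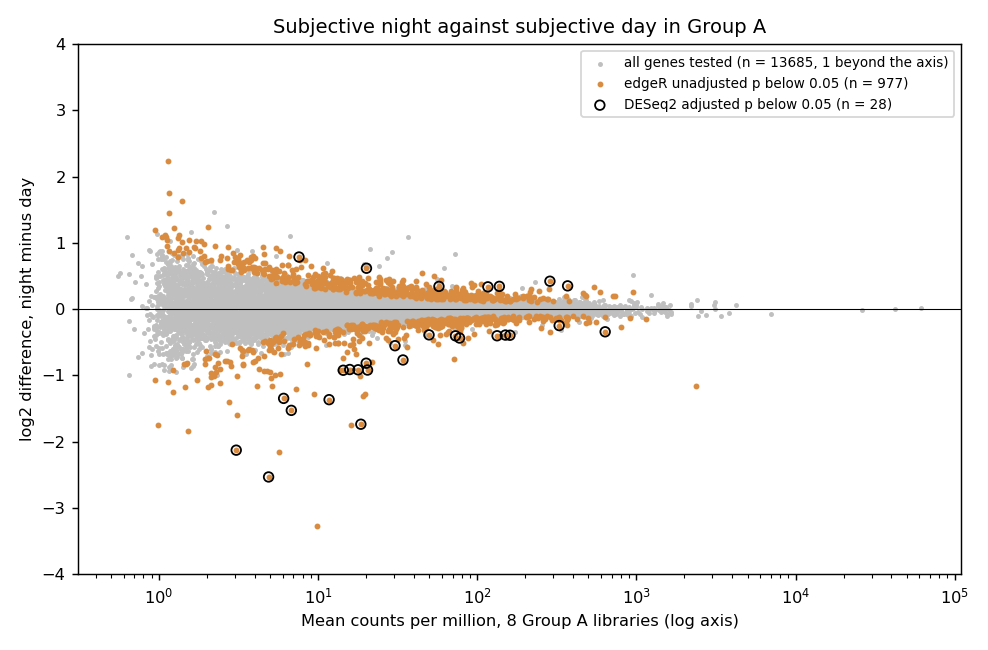
Each point is a gene, with its mean level in the 8 Group A libraries (CPM, log axis) against its log2 difference, night minus day, from the edgeR fit. Orange points have an unadjusted p below 0.05 by edgeR. Black circles mark the 28 genes with an adjusted p below 0.05 by DESeq2, 21 of which lie below the line at 0. The 1 gene beyond the axis, with a fitted value of -6.72, had a mean of 0.545 CPM and 0 CPM in every night library.

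The size of the differences depended on how deeply a gene was counted. CPM here is not divided by transcript length, so it ranks genes by counting depth and not by transcript number. Of the 2580 genes below 5 CPM, 42 (1.63%) differed by more than 2-fold between night and day, with a median size of 0.23 on the log2 scale. Of the 4173 genes with at least 50 CPM, only 1 differed by more than 2-fold, and the median size was 0.0523. The share of genes at an unadjusted p below 0.05 was 5.78% in the former and 8.53% in the latter. Among the deeply counted genes, 162 were higher at night at that p, with a median log2 difference of 0.19, and 194 were lower, with a median of -0.17.

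The genes printed by identifier are the 2 with the lowest edgeR p in each direction among those with a mean of at least 5 CPM. ENSRNOG00000018960 had 258, 245, 246 and 230 CPM at CT0, CT3, CT6 and CT9. At CT12, CT15, CT18 and CT21 it had 347, 291, 349 and 322 CPM. All night libraries lay above all day libraries, and the step lay between CT9 and CT12. The means were 245 ± 11.3 CPM by day and 327 ± 27.1 CPM at night (SD, n = 4 libraries each), a log2 difference of 0.42 (standard error 0.064, 95% interval 0.28 to 0.56), or 1.34-fold. Its adjusted p was 0.183 in edgeR's quasi-likelihood test and 3.72e-06 in DESeq2's Wald test.

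ENSRNOG00000004438 had a similar course at a smaller spread. It was counted at 99.1, 98.1, 112 and 104 CPM in the day libraries in order of time, and at 133, 127, 137 and 124 CPM in the night libraries. Again the phases did not overlap. The means were 103 ± 6.27 CPM by day and 130 ± 5.97 CPM at night (SD, n = 4 each). The log2 difference was 0.34 (standard error 0.058, 95% interval 0.21 to 0.46), with an adjusted p of 0.205 by edgeR and 0.00122 by DESeq2.

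The genes that were lower at night had another course. ENSRNOG00000008644 had 31.6, 26.4 and 42.3 CPM at CT0, CT3 and CT6, but 14.2 CPM at CT9. Its night values were 6.05, 14.6, 6.33 and 7.07 CPM in order of time. The phases overlapped, since the CT9 library lay below that of CT15. The mean was 28.6 ± 11.7 CPM by day and 8.51 ± 4.08 CPM at night (SD, n = 4 each), and the log2 difference was -1.74 (standard error 0.32, 95% interval -2.42 to -1.06), or 3.34-fold lower. The adjusted p was 0.205 by edgeR and 0.0388 by DESeq2.

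ENSRNOG00000007683 was counted at 20.5, 22.3, 19.6 and 13.1 CPM from CT0 to CT9 and at 9.03, 12.2, 8.32 and 10.1 CPM from CT12 to CT21. The CT9 library was again the lowest of the day and that of CT15 the highest of the night, but the phases did not overlap. The mean went from 18.9 ± 4.02 CPM by day to 9.91 ± 1.69 CPM at night (SD, n = 4 each). The log2 difference was -0.92 (standard error 0.17, 95% interval -1.29 to -0.55), with an adjusted p of 0.205 by edgeR and 7.44e-04 by DESeq2. All 4 identifiers were past the threshold by DESeq2 and short of it by edgeR with the filter and all 8 libraries. By edgeR without a filter on low counts all 4 were past it, with adjusted p between 1.79e-05 and 0.0064, and without the CT9 library 3 were.

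**Figure D2:**
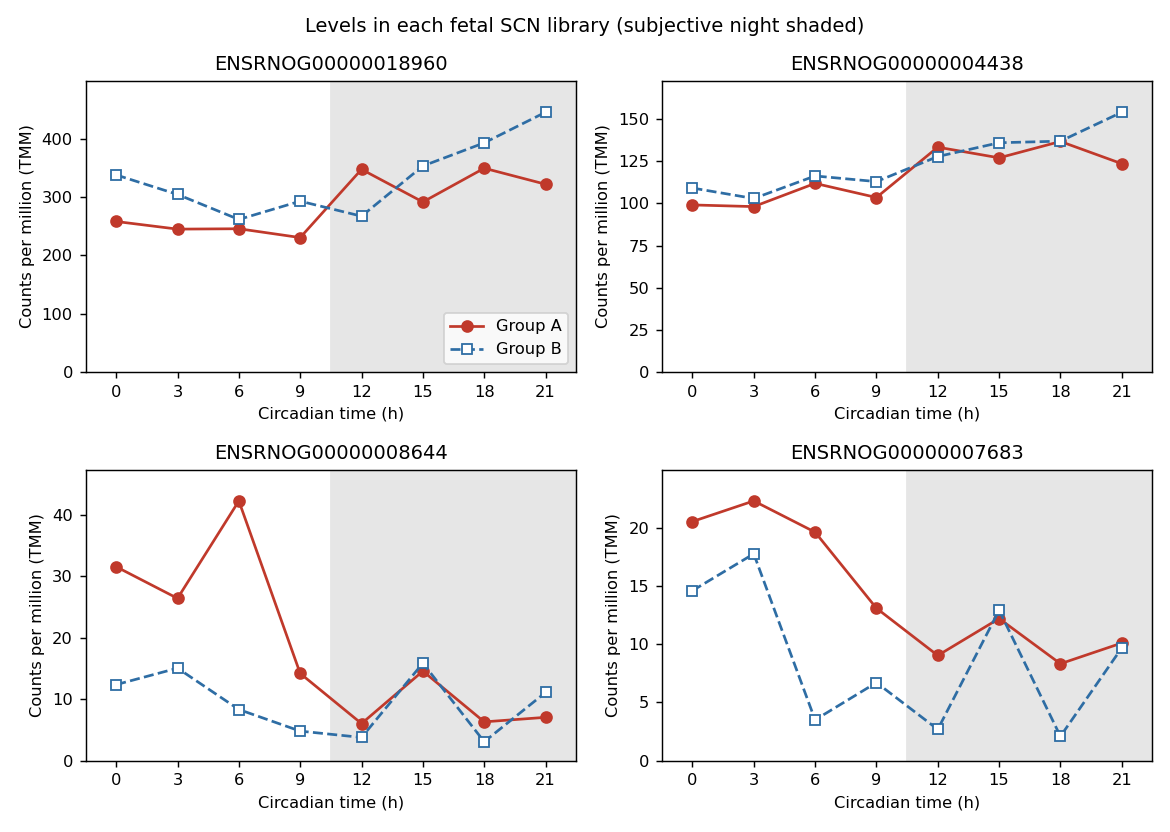
Level (CPM after TMM normalization within each group) of the 4 printed genes at each circadian time (h) in Group A (filled red circles) and Group B (open blue squares), 1 library per point, with the subjective night shaded. In Group A the upper 2 genes step up between CT9 and CT12, whereas the lower 2 are low from CT9 on with a smaller maximum at CT15, and in Group B the lower 2 genes move together over the libraries.

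Of the 28 genes called by DESeq2, 7 rose at night and 21 fell. The 7 that rose did so by 0.33 to 0.78 on the log2 scale (median 0.35), at mean levels from 7.59 to 370 CPM. The median of the 21 that fell was -0.82, at 3.06 to 636 CPM. All 28 had an unadjusted p below 0.05 by edgeR and ranked among its first 68 genes, with adjusted p up to 0.419. The phases did not overlap for 21 of the 28, against 4.03% of all genes tested. The 28 were chosen by the same contrast, so this count describes the choice. The number of DESeq2 calls depended on single libraries. It was 13 without CT0, 17 without CT3, 15 without CT6, 13 without CT18 and 14 without CT21, but 85 without CT9 and 44 without CT15.

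The time course of these genes followed the printed examples. The 7 higher genes had their maximum at CT18 (5 genes) or CT21 (2 genes). Their median log2 deviation from each gene's own mean lay between -0.22 and -0.20 in the 4 day libraries and between 0.13 and 0.26 in the 4 night libraries. The 21 lower genes had their maximum at CT6 (12 genes), CT0 (6 genes) or CT3 (3 genes) and none at CT9. Their median deviation was 0.52, 0.30 and 0.53 at CT0, CT3 and CT6, but -0.04 at CT9. At night it was -0.46, -0.17, -0.40 and -0.36 in order of time. These genes were chosen on these libraries, so the courses describe the choice and are no separate test.

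**Figure D3:**
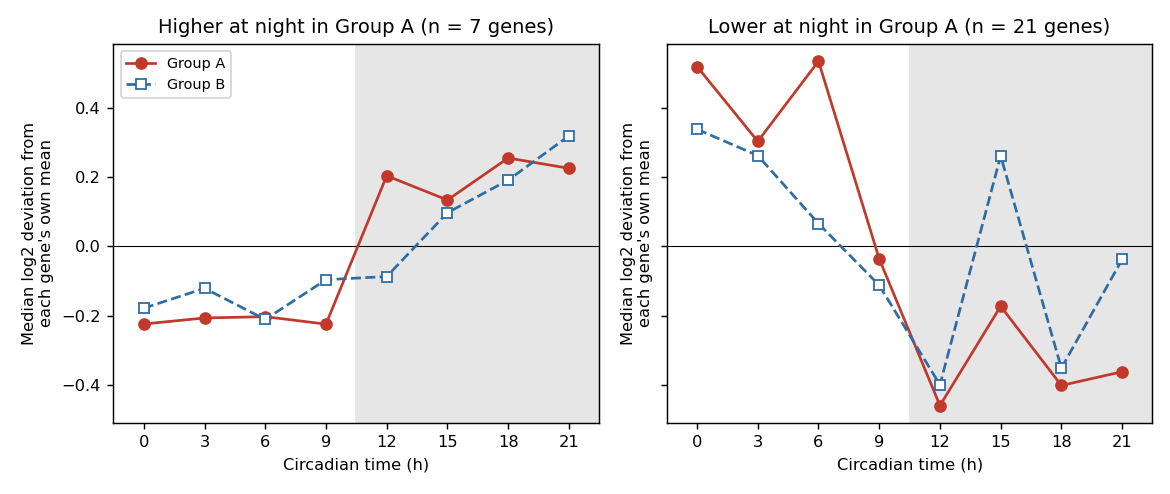
Median over genes of the log2 deviation from each gene's own mean within a group, against circadian time (h), for the 7 genes higher (left) and the 21 genes lower (right) at night in Group A by DESeq2, with the subjective night shaded. Group A is drawn in filled red circles and Group B, whose libraries did not enter the choice, in open blue squares. In Group B the 7 genes climb to CT21, and the 21 genes have a second maximum at CT15.

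A gene was also counted when all 4 night libraries lay on one side of all 4 day libraries. This held for 255 genes with night above day (1.86% of those tested) and 297 with night below day (2.17%), or 552 in all (4.03%). In the former the highest library was that of CT18 for 76 genes, CT15 for 70, CT21 for 67 and CT12 for 42. Their lowest library was CT6 for 87 genes, CT0 for 67, CT3 for 51 and CT9 for 50. In the genes with night below day the highest library was CT0 for 104 and CT6 for 95, against 56 for CT3 and 42 for CT9. The lowest was CT18 for 90, CT15 for 74, CT12 for 69 and CT21 for 64. The CT12 and CT9 libraries were thus the least frequent maximum of their phase. Over all genes tested the highest value was also unevenly spread, with 14.2% of genes at CT0, 10.5% at CT3, 15.5% at CT6 and 9.72% at CT9. CT9 was thus the least frequent maximum of its phase over all genes too. At night it was 11.1% at CT12, 14.0% at CT15, 14.7% at CT18 and 10.2% at CT21, so there CT21 and not CT12 was the least frequent of its phase.

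**Figure D4:**
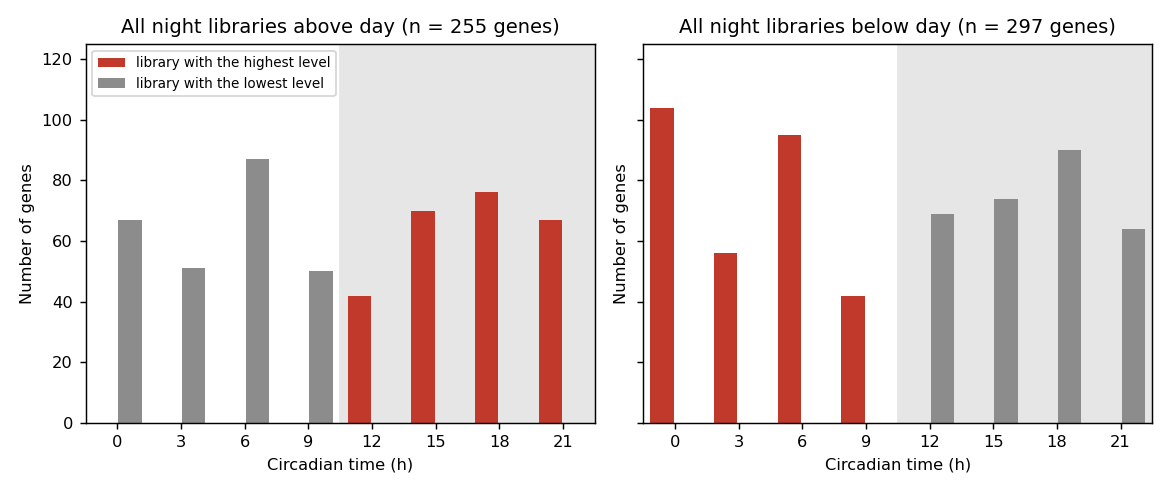
Number of genes whose highest (red) or lowest (grey) level fell in each library, by circadian time (h), for the 255 genes with all night libraries above day (left) and the 297 with all night libraries below day (right), with the subjective night shaded. The red bars are lowest at CT12 on the left, with 42 genes, and at CT9 on the right, also with 42.

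No grouping of the libraries by phase was found by correlation across all genes. The mean Pearson correlation of log2 CPM across the 13685 genes was 0.9822 among day libraries, 0.9828 among night libraries and 0.9822 between them, where genes are not independent replicates. A difference as large as that between the means within and between phases was reached by 10 of the 35 possible divisions of the 8 libraries in equal parts (one-sided exact permutation test, p = 0.286, smallest possible 0.0286). The nearest library was one of the same phase for 3 of 8 libraries. The first principal component, with 29.9% of the variance, set CT18 (-28.9) and CT0 (-21.7) against CT6 (27.1) and CT15 (19.6), a night and a day library at each end. The second, with 17.2%, had day scores of 23.3, 10.1, 15.5 and -6.85 and night scores of -16.2, -8.23, -9.34 and -8.29, both in order of time. The phases did not overlap on it (exact permutation test, two-sided, p = 0.0286, the smallest possible, and 0.200 adjusted over 7 components), but CT9 lay next to the night libraries.

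**Figure D5:**
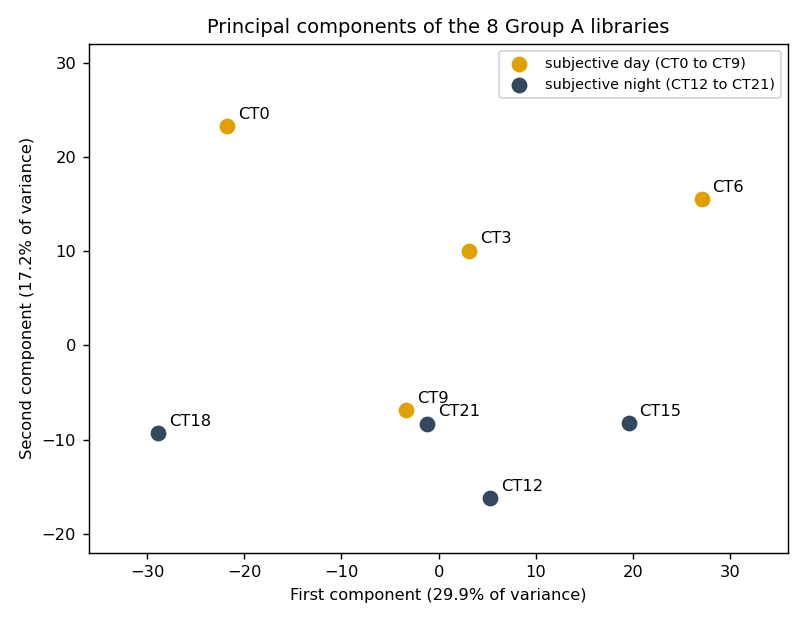
Scores of the 8 Group A libraries on the first (horizontal) and second (vertical) principal component of log2 CPM, in arbitrary units, with day libraries in yellow and night libraries in dark blue. CT0, CT3 and CT6 lie above 10 on the second component and CT9, at -6.85, lies beside CT21.

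Each library was also placed against the other 7 over the genes that had an unadjusted p below 0.05 by edgeR when it was left out, so that it had no part in the choice. The CT18 library lay nearer to the mean of the other night libraries in 62.8% of 818 genes, and CT21 did so in 60.8% of 826. For CT12 the share nearer to its own phase was 53.3% of 893 genes and for CT15 49.1% of 1021. Among day libraries the share was 57.5% for CT0, of 863 genes, and likewise 57.5% for CT3, of 868, and it was 54.6% for CT6, of 951. The CT9 library was nearer to its own phase in 37.7% of 1072 genes, the lowest share among the libraries. The mean of the own phase held fewer libraries than that of the other phase, since the placed library was left out. An even split is therefore not the share to expect without a phase difference, and that share was not determined. The CT9 library lay nearer to the night mean in most of the genes that separated the other libraries. Its highest correlation was with CT21 (0.987). This was not particular to CT9, since CT3 also had its highest correlation with CT21 (0.987) and CT6 with CT15 (0.984). Of the 27 genes that edgeR called without CT9, 25 fell at night and 2 rose, and 15 were among the 28 called by DESeq2 with all libraries.

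Differences over 2-fold were few. Among genes at an unadjusted p below 0.05 by edgeR, 17 were more than 2-fold higher at night, all with means between 0.949 and 2.02 CPM, and 34 were more than 2-fold lower. Over all genes tested, 0.431% differed by more than 2-fold. These genes were chosen by the contrast itself, so their levels describe the choice. The means of the 17 also lay near the filter, which asks for 1.5 CPM in at least 3 libraries. At such levels a gene can pass the filter by its night libraries alone. The means of the 34 lower genes began at 0.545 CPM, with a median of 3.63 CPM. The lowest of them thus also lay near the filter, where a gene can pass by its day libraries alone. The part of the filter in the rise of the 17 and the fall of the 34 was not tested. Summed over the 17 genes, the level was 11.6 to 15.2 CPM in the day libraries and 30.8 to 32.9 CPM in the night libraries. DESeq2 called 0 of the 17 and 6 of the 34. Of the 34 lower genes, 24 had their maximum at CT6. Their median deviation from each gene's own mean was 1.29 on the log2 scale at CT6, against 0.79 at CT0, 0.78 at CT3 and -0.19 at CT9.

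A single gene of the 34 was counted above 50 CPM. It had 4506, 1027, 4554 and 2953 CPM in the day libraries in order of time and 925, 719, 1685 and 2503 CPM at night. The phases overlapped, since CT3 lay with the lower night libraries and CT21 with the higher day libraries. Its log2 difference was -1.16 (standard error 0.41), with an adjusted p of 0.566 by edgeR and 0.674 by DESeq2. In Group B its difference had the opposite sign, 0.99 on the log2 scale, with an unadjusted p of 0.00197 by edgeR. The difference between the groups had an unadjusted p of 0.00133 and an adjusted p of 0.997 by edgeR. This gene was described after its values were seen.

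The litters of Group B, which share no library with Group A, were compared at the same circadian times under a lesioned maternal SCN and restricted feeding. Their CT12 was the start of activity tied to feeding and not of free-running activity, so night and day were not defined alike. Over all genes tested, 7963 (58.2%) differed in the same direction in both groups. The share was 78.8% for the 501 genes higher at night in Group A at an unadjusted p below 0.05, with a median log2 difference of 0.12 in Group B, and 66.6% for the 476 lower genes, with a median of -0.05. Of the higher genes, 110 also had an unadjusted p below 0.05 in the same direction in Group B, or 22.0% of the Group A list and 15.5% of the 709 of Group B, which were 5.18% of all genes tested. Of the lower genes, 65 did, or 13.7% of the Group A list and 12.0% of the 542 of Group B, which were 3.96% of all genes tested. The Pearson correlation of the log2 differences of the groups was 0.18 across all genes and 0.36 across the 4173 with at least 50 CPM, given as a description since genes are not independent. For Group B alone, edgeR called 0 genes (lowest adjusted p = 0.145), with 1251 (9.14%) at an unadjusted p below 0.05, and DESeq2 called 91. All night libraries of Group B lay above all its day libraries for 432 genes (3.16%) and below them for 330 (2.41%). Of the 255 and 297 genes without overlap in Group A, 29 (11.4%) and 17 (5.72%) were among these in the same direction, which is 6.71% and 5.15% of the Group B lists.

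In Group B, all 7 genes called higher by DESeq2 in Group A were higher at night, with a median log2 difference of 0.27. Over all genes tested, 58.2% had the same direction in both groups. Of the 7, 4 had an unadjusted p below 0.05 by edgeR, where 5.18% of all genes tested were higher at that p. ENSRNOG00000004438 had 109, 103, 116 and 113 CPM in the Group B day libraries and 128, 136, 137 and 154 CPM in the night libraries, without overlap. Its log2 difference was 0.33 (standard error 0.062, adjusted p = 0.145 by edgeR). ENSRNOG00000018960 had 338, 304, 261 and 293 CPM by day and 267, 353, 393 and 445 CPM at night, with its CT12 library among those of the day, and a log2 difference of 0.28 (standard error 0.12).

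The 21 genes that fell at night in Group A were lower at night in Group B in 19 cases, with a median log2 difference of -0.24. By edgeR 7 had an unadjusted p below 0.05, where 3.96% of all genes tested were lower in Group B at that p. Of the genes that differed by more than 2-fold in Group A, 9 of the 17 higher ones had the same direction in Group B, with a median of 0.19, and 22 of the 34 lower ones, with a median of -0.22, where the share over all genes was 58.2%. ENSRNOG00000008644 had 12.4, 15.1, 8.34 and 4.83 CPM in the Group B day libraries and 3.8, 15.9, 3.1 and 11.1 CPM at night. ENSRNOG00000007683 had 14.6, 17.8, 3.51 and 6.71 CPM by day and 2.7, 12.9, 2.1 and 9.68 CPM at night. Both had their 4 highest values at CT0, CT3, CT15 and CT21, so day and night overlapped widely. Their log2 differences in Group B were -0.25 (standard error 0.46) and -0.63 (standard error 0.55).

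The 21 lower genes moved together over the Group B litters, and so did the 7 higher genes. Of the 210 pairs among the 21 genes, 41.4% had a correlation above 0.7 over the 8 Group B libraries, with a median of 0.66. Among the 7 higher genes it was 47.6% of 21 pairs, with a median of 0.67. Of all 93632770 pairs of genes tested, 3.18% had a correlation above 0.7, with a median of -0.001. Each called set shared a direction in Group A and mostly kept it in Group B, which by itself raises these correlations. All pairs hold genes of either direction, so their share is not a like background. How much the shared night-day difference adds was not tested. For the pair of printed lower genes, Pearson's r of log2 CPM over the 8 Group B libraries was 0.890 and Spearman's rho 0.905 (exact permutation tests, two-sided, p = 0.00724 and 0.00456, 1 relation, chosen after the values were seen). Without the CT12 and CT18 libraries of Group B r was 0.696. The 2-fold lower and 2-fold higher genes gave medians of 0.37 over 561 pairs and 0.03 over 136 pairs. Which tissue or cells these genes belong to was not tested, because the identifiers are not paired with symbols.

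For the difference of the night-day contrasts, Group B minus Group A, edgeR called 0 of 13685 genes (0%, lowest adjusted p = 0.212), with 569 (4.16%) at an unadjusted p below 0.05, and DESeq2 called 1. Without a filter on low counts edgeR called 2. At an unadjusted p below 0.05 for this difference by edgeR were 8 of the 28 genes called by DESeq2 in Group A, 7 of the 17 more than 2-fold higher and 13 of the 34 more than 2-fold lower. These genes were chosen on Group A libraries that also enter the difference, so the counts describe the choice and are not read against the 4.16%. Of the 977 genes at an unadjusted p below 0.05 in Group A, 10 passed that p in the opposite direction in Group B. Over all genes tested, 5.18% were higher and 3.96% lower at night in Group B at that p by edgeR. ENSRNOG00000008644, with log2 differences of -1.74 (Group A) and -0.25 (Group B), had a difference between the groups of 1.49 (standard error 0.63, adjusted p = 0.997 by edgeR). For ENSRNOG00000004438 the difference between the groups was -0.00796 (standard error 0.086).

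When the night-day difference was averaged over both groups in a single fit, an alternative chosen after the Group A result was seen, edgeR called 52 genes (0.380%), 32 higher at night (0.234%) and 20 lower (0.146%). The values of the 52 in Group A describe the choice, since Group A libraries entered the fit. The 32 had a median log2 difference of 0.29 there and 18 did not overlap between phases. The 20 had a median of -0.26 and 14 did not overlap. Over all genes tested, 1.86% had night above day in Group A without overlap and 2.17% had night below day. ENSRNOG00000004438 had the lowest adjusted p of this fit (0.00379), while the other printed genes did not pass (adjusted p = 0.0519, 0.193 and 0.321). Of the 28 genes called by DESeq2 in Group A alone, 8 were among the 52. Leaving out 1 library gave 2 calls without CT18 of Group B, 3 without its CT0 or CT21, 9 without its CT3 and 31 without its CT6, and 4 without CT3 or CT18 of Group A, 24 without its CT0 and 28 without its CT12. It gave 81 without CT9 of Group A and 99 without CT9 of Group B.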

How the data were processed

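RNA-Seq counts of 16 libraries were used, 8 of them for the comparison. The deposited counts are whole numbers of reads per Ensembl gene, made by the authors from reads mapped to rn6 with HISAT2 2.1.0, with Salmon and StringTie named for counting, without normalization or filter (per the submitters' processing notes and the study's methods). Each column was assigned to its sample by the letter and the time in its name. With R 4.3.3, genes with at least 1.5 CPM in 3 of the 16 libraries were kept, as in the study, and night was tested against day within Group A by edgeR 4.0.16 (TMM, quasi-likelihood, Benjamini-Hochberg over all genes kept). DESeq2 1.42.0 was the alternative and gave no adjusted p for 1062 genes. The study used DESeq2 for its filter and to compare expression between the groups, and other tools to look for rhythms. Standard errors are the log2 difference divided by the square root of F. The difference between groups was the interaction term over 16 libraries.

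Depth covers counting error only. Litter, circadian time and library are the same unit, so p-values measure the spread between 4 litters at different times. The rule for named genes was to give the genes past the threshold and, where few passed, the 12 lowest p in each direction with a symbol, 3 genes of each of 33 gene lists and fixed genes such as those of the clock. It needs symbols, so only 2 identifiers in each direction are printed and the lists were not used. The contrast and the lists were chosen with earlier results of these data known. The tests were checked on simulated counts. Alternatives were other size factors, other filters, thinning, one fit over all libraries, libraries left out and circadian time as a block.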

Additional observations from a re-analysis of the deposited data

Results flagged for a closer look

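Among 34 combinations of a measure and a group of 4 libraries, examined for 1 library far from the other 3, chance would give about 1.7 and 3 were found, all in the Group A night. The most abundant gene took 6.50% of the counts in the CT15 library, where the other night libraries had 6.01% to 6.08%. The CT12 library had a score of -16.2 on the second principal component, where the next was -9.34. ENSRNOG00000008644 had 14.6 CPM at CT15, against 6.05 to 7.07 CPM in the other night libraries.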

How the results depend on the processing

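The number of genes past the threshold in Group A stayed at 0 by edgeR with other size factors, a filter of 10 counts in each library, all 16 libraries in one fit, thinning to the smallest total and without CT0 and CT12. It was 28 with DESeq2's Wald test, 48 without a filter on low counts and 0 to 27 with each library left out. Averaged over both groups, which is not a test of Group A alone, the count was 52. The lowest adjusted p over these alternatives ranged from 3.72e-06 to 0.697. The DESeq2 count was 13 without CT0 and CT12 and 13 to 85 with each library left out. In Group B edgeR's count of 0 became 91 with DESeq2 and 57 without a filter, and was 0 to 1 with each library left out. The difference between groups had 0 calls when circadian time was a block or any of the 16 libraries was left out, 1 with DESeq2 and 2 without a filter. The averaged count of 52 became 211 with DESeq2, 118 without a filter and 2 to 99 with each library left out. The counts of genes without overlap were 780 (night above day) and 723 (below) without CT0 and CT12, and 431 to 578 and 448 to 618 with each library left out, where fewer libraries leave fewer ways to overlap. The second principal component separated night from day under other size factors, filters and thinning. The 4 printed genes kept their direction in all 60 repeats and were past the threshold in 12 of them, namely all 4 by DESeq2 and without a filter, 3 without CT9 and 1 without CT15. For the changes with the tool, the filter and the library left out, the cause was not tested. At totals of 10746066 to 12781966 counts, the median size of the difference was 0.23 on the log2 scale for genes below 5 CPM and 0.0523 for those of at least 50 CPM, and the part of counting error in this was not tested.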
